A study of Mus musculus with 18 samples.

Results

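CC chemokines are small secreted proteins, named for a pair of adjacent cysteines, that bind to G protein-coupled receptors on leukocytes and draw these cells to the place of secretion. In the brain they are made by microglia, macrophages of the brain borders, astrocytes and cells of the vessel wall, mostly at low levels until an inflammatory stimulus arrives. Lipopolysaccharide (LPS), which Gram-negative bacteria carry on their surface, is sensed by Toll-like receptor 4, whose signals pass through NF-kB and interferon regulatory factors to chemokine genes. The 10 CC chemokine transcripts described here are those of Ccl2, Ccl3, Ccl4, Ccl5, Ccl6, Ccl7, Ccl9, Ccl12, Ccl17 and Ccl19. They were taken by gene symbol from the 36172 genes listed for brain RNA of Cx3cr1-NuTRAP mice, and all 10 were found. A further 13 CC ligands are listed and serve for comparison.

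RNA was isolated by translating ribosome affinity purification (TRAP) and sequenced. All animals carried Cx3cr1-cre/ERT2+; NuTRAP+, so that tamoxifen placed an EGFP tag on ribosomes of cells in which Cre was driven from Cx3cr1, mainly microglia but also border macrophages. Every mouse received tamoxifen on 5 days at about 3 months of age and, 3 to 4 weeks later, a single intraperitoneal injection of 5 mg/kg LPS or of PBS, and tissue was taken 24 h after it. Some of the lysate of each brain sample was kept as input, and an antibody to GFP was used to isolate tagged ribosomes as the positive fraction. This gave 5 Positive LPS libraries and 4 libraries each of Positive PBS, Input LPS and Input PBS. The PBS animals were 2 females and 2 males and the LPS animals 4 females and 1 male. Each library came from 1 animal, and libraries are named by group and animal number. The labels list no animals without Cre and no uninjected animals.

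The 17 libraries used held from 22968939 to 35123345 counts. The input library of LPS animal 271 held 1252 counts, with 0 counts of the 10 ligands, and was left out. The positive library of animal 271 stood apart in 1 respect, with 1.30% of its counts on Rn45s, the ribosomal RNA precursor, against 0.121% to 0.313% in the other 16 libraries. All 8 microglia markers checked were higher in the positive fraction than in input in both treatments, and so were all 8 border macrophage markers, while all 7 oligodendrocyte markers were lower, where 21.0% of all genes were called higher and 18.8% lower in PBS animals. Of 7 neuron markers, 3 were higher and 0 lower in PBS animals, and of 8 astrocyte markers 1 was higher and 3 were lower. The median log2 differences of these lists were 0.18 and -0.16. The sum of the 7 neuron markers was 176068 to 183808 normalised counts in input and 185338 to 210392 in the positive fraction. That of the 8 astrocyte markers was 135647 to 138814 and 137086 to 186681. Slc1a2 was the largest part of the astrocyte sum, at a mean of 59366 in Input PBS and 87728 in Positive PBS. Values below are read counts normalised by library size factors, or the same per kb of exon where levels of different genes are compared. Genes were tested with edgeR's quasi-likelihood test over 14803 genes, whose normalised count exceeded 20 in all libraries of 1 group or more. A gene is called higher or lower at a Benjamini-Hochberg adjusted p under 0.05 and a log2 fold change over 0.32 in size. All 10 ligands were tested, but Ccl2, Ccl7 and Ccl17 passed the count filter only through LPS groups, so that these 3 could hardly have entered without a difference, and they are counted separately. In such bulk libraries, fewer cells of a type and less RNA per cell cannot be told apart.

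Of the 10 ligand genes, 8 lie on mouse chromosome 11, in the mm10 coordinates deposited with the counts. At its lower coordinates are Ccl2 (chr11:82035577-82037452), Ccl7 (chr11:82045712-82047523) and Ccl12 (chr11:82101845-82103399), all on the plus strand. Farther along lie Ccl5 (chr11:83525779-83530518), Ccl9 (chr11:83572917-83578636), Ccl6 (chr11:83587886-83593087) and Ccl3 (chr11:83647843-83649378), on the minus strand, and Ccl4 (chr11:83662584-83664683), on the plus strand. Ccl17 (chr8:94810453-94812036, plus strand) and Ccl19 (chr4:42754525-42756518, minus strand) lie elsewhere. Ccl9 and Ccl6 are neighbours on the same strand with 9.25 kb between them, and their LPS responses in the positive fraction went in opposite directions, as described below. Of the 42-base stretches in annotated Ccl19 transcripts, 59.3% also occur in 4 other annotated genes, Ccl19-ps1, Ccl19-ps3, Gm12407 and Gm2564. The 3 of these that the table lists were at 0 counts in all 17 libraries, and the level of Ccl19 is uncertain to the extent that such copies are transcribed. For the other 9 ligands the shared portion was between 0% and 2.83%.

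RefSeq promoters (GRCm38.p6) were at hand for 6 of the 10 ligands, namely Ccl3, Ccl6, Ccl9, Ccl12, Ccl17 and Ccl19. The 250 bases before the annotated start are printed for Ccl3 and Ccl12, strongly raised by LPS, and for the neighbours Ccl9 and Ccl6, of which the former rose and the latter fell on tagged ribosomes. They run 5′ to 3′ on the strand of the gene, and capitals mark a match to one of 3 motifs searched on both strands.
Ccl12, chr11:82101595-82101844, plus strand: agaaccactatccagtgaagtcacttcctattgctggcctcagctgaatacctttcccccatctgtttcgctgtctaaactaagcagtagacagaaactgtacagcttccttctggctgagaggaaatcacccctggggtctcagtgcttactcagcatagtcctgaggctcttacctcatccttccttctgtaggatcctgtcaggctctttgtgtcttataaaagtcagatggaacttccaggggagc
Ccl3, chr11:83649379-83649628, minus strand: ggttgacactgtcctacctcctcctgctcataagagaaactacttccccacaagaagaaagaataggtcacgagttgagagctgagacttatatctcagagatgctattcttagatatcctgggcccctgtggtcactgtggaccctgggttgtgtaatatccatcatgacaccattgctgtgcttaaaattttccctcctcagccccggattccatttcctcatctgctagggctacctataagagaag
Ccl9, chr11:83578637-83578886, minus strand: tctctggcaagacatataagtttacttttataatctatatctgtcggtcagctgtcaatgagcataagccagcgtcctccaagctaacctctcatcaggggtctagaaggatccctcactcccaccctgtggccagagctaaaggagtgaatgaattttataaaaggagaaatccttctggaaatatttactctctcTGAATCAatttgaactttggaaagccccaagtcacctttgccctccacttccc
Ccl6, chr11:83593088-83593337, minus strand: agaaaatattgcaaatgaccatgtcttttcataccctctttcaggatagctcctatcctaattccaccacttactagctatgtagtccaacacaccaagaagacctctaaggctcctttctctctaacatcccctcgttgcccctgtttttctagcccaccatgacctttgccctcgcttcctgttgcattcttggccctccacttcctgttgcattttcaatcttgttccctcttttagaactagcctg

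The AP-1 motif TGANTCA was found in 1 of the 6 windows, that of Ccl9, against 6.75% of the 32851 promoters of the table. The interferon-stimulated response element TTTCNNTTT was found in 1 of 6, that of Ccl19, against 9.37% of all promoters. The RefSeq start of Ccl19 lies inside the deposited gene model, so this window overlaps the coordinates given above for Ccl19, and it is not printed. For NF-kB only the letters GGANTTTCC were searched, and other forms of its motif were not. These letters were found in none of the 6, against 1.07% of all promoters. No 2 of the matches overlapped. These matches describe letters in the windows only, and enhancers and farther promoter sequence were not searched.

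LPS raised most of the ligands in both fractions. In the positive fraction, 9 of the 10 were higher and 1, Ccl6, was lower, where 19.0% of all genes tested were called higher and 14.9% lower. The median log2 fold change of the 10 was 2.88, and that of all genes tested 0.01. In input, 8 of the 10 were higher, where 7.16% of all genes were called higher and 5.26% lower, and Ccl4 and Ccl6 were not called. The median log2 fold change there was 2.16, and that of all genes 0.00. Of the 7 ligands that passed the filter in a PBS group, 6 were higher and 1 lower in the positive fraction and 5 were higher in input. With the animal as a block, through limma-voom and a correlation within animals, 5 ligands in place of 8 were called in input (Ccl2, Ccl5, Ccl7, Ccl17 and Ccl19). Leaving out animals 506 and 507, whose numbers stand apart from those of the other 7 animals, also gave 5 (Ccl2, Ccl3, Ccl5, Ccl17 and Ccl19), so that the calls of Ccl2, Ccl5, Ccl17 and Ccl19 in input held under both settings. Libraries of LPS and PBS animals did not overlap for 9 of the 10 ligands in the positive fraction, against 30.1% of all genes, and for 8 of the 10 in input, against 24.1%.

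**Figure D1:**
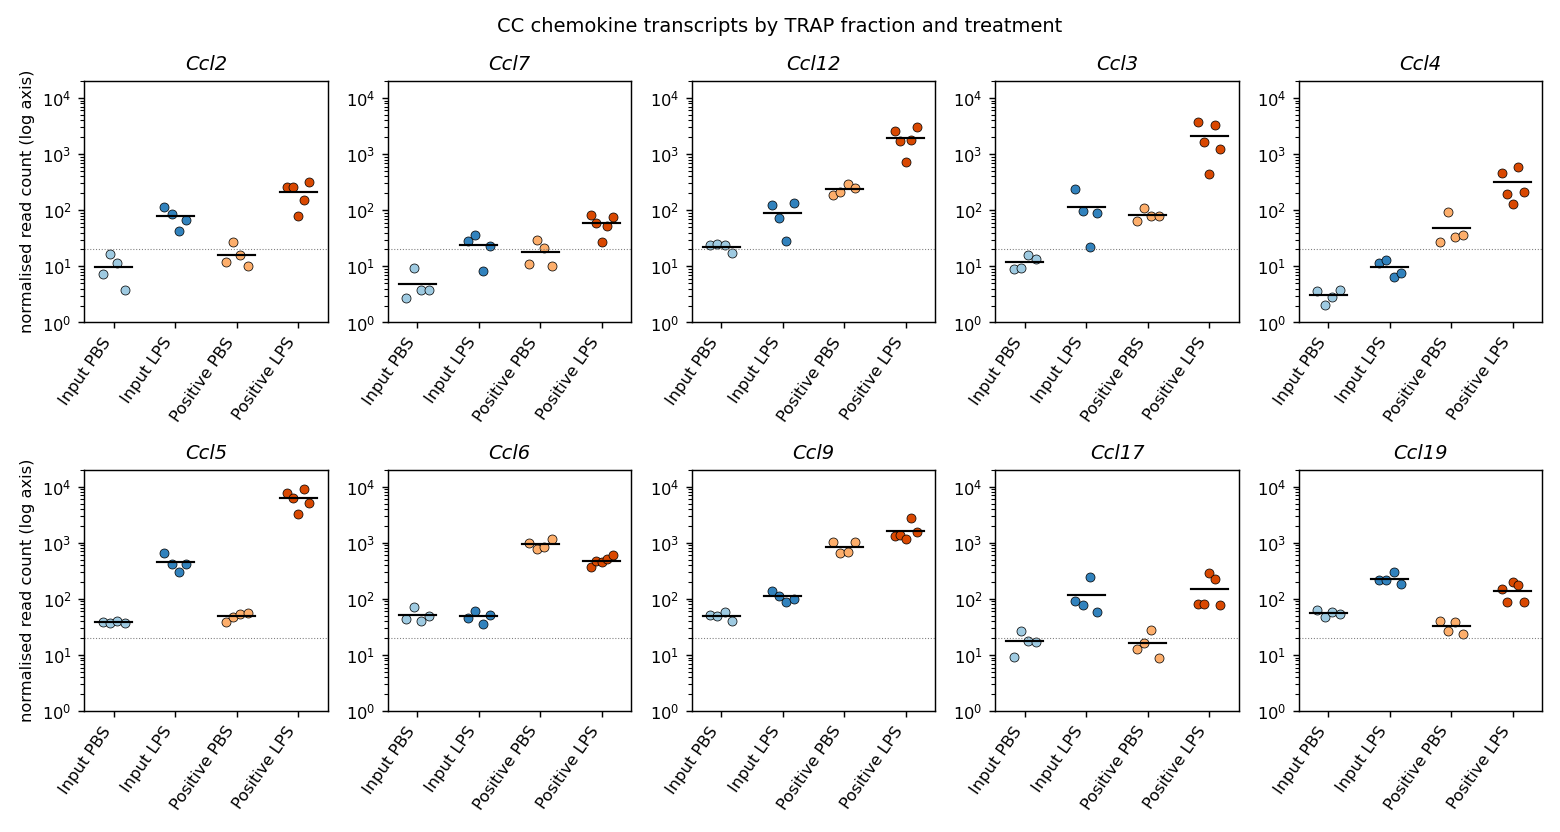
Normalised read counts (log axis) of the 10 CC chemokine transcripts in the 4 groups, with 1 panel per gene, 1 point per library, the group mean as a bar and the filter of 20 normalised counts as a dotted line. Ccl5 shows the widest step between Positive PBS (39.2 to 56.1) and Positive LPS (3231 to 8923), and Ccl6 is the gene whose Positive LPS points all sit below Positive PBS.

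**Figure D2:**
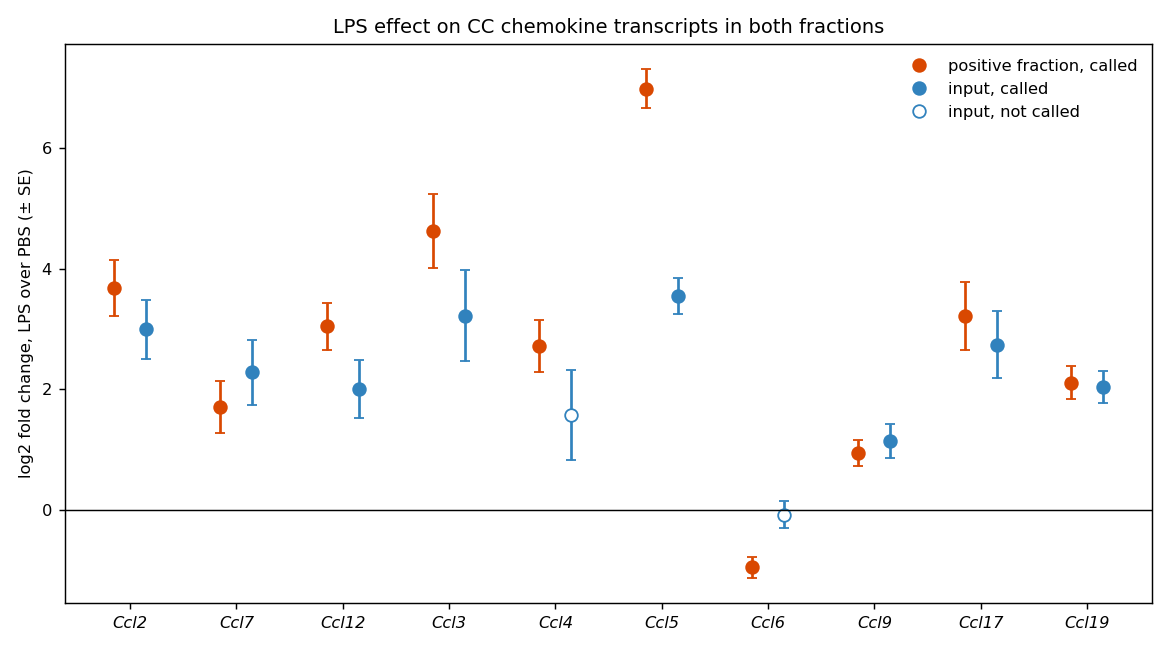
Log2 fold change of LPS over PBS with its standard error for each ligand, in the positive fraction and in input, from the edgeR fit over all genes. Filled points were called and open points were not. In the positive fraction the values run from -0.95 for Ccl6 to 6.98 for Ccl5.

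Ccl2, Ccl7 and Ccl12 encode ligands of CCR2, the receptor that inflammatory monocytes use to leave the bone marrow and enter inflamed tissue. All 3 were higher after LPS in both fractions. Ccl12 was at 183, 215, 296 and 254 normalised counts in the Positive PBS libraries of animals 268, 272, 273 and 506. In Positive LPS it was at 2528, 1720, 710, 1755 and 3045 in animals 266, 267, 270, 271 and 507. Every LPS library was above every PBS library, and animal 270 was the lowest of its group by a wide margin. The log2 fold change was 3.04 ± 0.39 (SE), an 8.25-fold rise (edgeR adjusted p = 6.63e-06).

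In input, Ccl12 was at 23.7, 24.8, 23.7 and 17.1 in PBS animals 268, 272, 273 and 506, and at 122, 73.5, 27.9 and 137 in LPS animals 266, 267, 270 and 507. The groups did not overlap, but the library of animal 270 lay only just above the PBS range. The input log2 fold change was 2.01 ± 0.48 (edgeR adjusted p = 0.00854). With the animal as a block it was 1.78 and no longer called (limma adjusted p = 0.178), and without animals 506 and 507 it was 1.62 (edgeR adjusted p = 0.0858).

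Ccl2, which encodes the best-known CCR2 ligand, was nearly silent on tagged ribosomes in PBS animals, with 10.2 to 26.7 normalised counts. In Positive LPS it was at 260, 256, 77.9, 150 and 318 in animals 266, 267, 270, 271 and 507. The ranges lay apart, with animal 270 again the lowest. The log2 fold change was 3.68 ± 0.46 (edgeR adjusted p = 5.28e-06), and in input 2.99 ± 0.49 (edgeR adjusted p = 0.000337), from 3.81 to 16.5 in PBS animals to 42.7 to 115 in LPS animals. Ccl7 stayed low throughout, at 10.2 to 29.5 in Positive PBS and 26.9 to 82.1 in Positive LPS, and these ranges overlapped. Its log2 fold change was 1.70 ± 0.43 in the positive fraction (edgeR adjusted p = 0.00402) and 2.28 ± 0.54 in input (edgeR adjusted p = 0.00766). Without animals 506 and 507 neither was called, with 1.41 in the positive fraction (edgeR adjusted p = 0.0541) and 2.20 in input (edgeR adjusted p = 0.0606).

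Ccl3, Ccl4 and Ccl5 encode chemokines that attract monocytes and activated T cells, and CCR1 is a receptor of Ccl3 and Ccl5. All 3 were higher after LPS in the positive fraction, and Ccl3 and Ccl5 also in input. Ccl5 was at 39.2, 48.5, 53.5 and 56.1 in Positive PBS animals 268, 272, 273 and 506. In Positive LPS it was at 7597, 6181, 3231, 8923 and 5056 in animals 266, 267, 270, 271 and 507. The lowest LPS library was far above the highest PBS library, and the log2 fold change of 6.98 ± 0.32 was the largest of the 10 (edgeR adjusted p = 4e-11).

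In input, Ccl5 was at 38.3, 37.2, 40.8 and 37.1 in the PBS animals and at 656, 421, 307 and 419 in LPS animals 266, 267, 270 and 507. The input log2 fold change was 3.55 ± 0.30 (edgeR adjusted p = 3.14e-07). In PBS animals, the log2 ratio of positive to input within an animal was 0.34 ± 0.23 for Ccl5 (SD, n = 4), and the fit did not call the fractions different (0.35 ± 0.36, edgeR adjusted p = 0.442). In LPS animals the ratio was 3.60 ± 0.20 (SD, n = 4), and the lowest LPS animal, at 3.39, was above the highest PBS animal, at 0.58.

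Ccl3 was at 64.3, 110, 78.4 and 80.3 in Positive PBS animals 268, 272, 273 and 506. In Positive LPS it was at 3744, 1666, 440, 3240 and 1215 in animals 266, 267, 270, 271 and 507. No library overlapped between the groups, yet the LPS animals themselves were spread widely, from animal 270 to animal 266. The log2 fold change was 4.62 ± 0.61 (edgeR adjusted p = 1.05e-05). In input, Ccl3 was at 9.11 to 16.1 in PBS animals and at 243, 97.4, 22.2 and 89.9 in LPS animals 266, 267, 270 and 507. Its log2 fold change there was 3.22 ± 0.75 (edgeR adjusted p = 0.00717), 3.00 and not called with the animal as a block (limma adjusted p = 0.169), and 2.53 without the library of animal 266 (edgeR adjusted p = 0.0329).

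Ccl4 was at 27.2, 93.3, 34.0 and 35.7 in Positive PBS, where animal 272 stood above the rest, and at 451, 195, 129, 599 and 209 in Positive LPS. The groups did not overlap, and the log2 fold change was 2.71 ± 0.43 (edgeR adjusted p = 7.98e-05). In input Ccl4 was barely detected, at 2.06 to 3.81 in PBS animals and 6.57 to 12.9 in LPS animals. These ranges lay apart, but the log2 fold change of 1.57 ± 0.75 was not called (edgeR adjusted p = 0.182). On log2 normalised counts limma did call it (1.35, limma adjusted p = 0.0492).

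Ccl6 and Ccl9 encode ligands of CCR1 found in rodents, made by macrophages and microglia without stimulation. They parted after LPS in the positive fraction. Ccl6 was at 971, 762, 829 and 1164 in Positive PBS animals 268, 272, 273 and 506, and at 365, 482, 449, 505 and 607 in Positive LPS animals 266, 267, 270, 271 and 507. Every LPS library was below every PBS library. Ccl6 fell by 0.95 ± 0.17 on the log2 scale, which is 1.93-fold (edgeR adjusted p = 0.000259), and it was the only one of the 10 ligands called lower with LPS in either fraction.

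In input, Ccl6 was at 43.8, 72.2, 40.8 and 50.5 in PBS animals and at 45.5, 61.6, 36.1 and 52.1 in LPS animals. These groups overlapped almost fully, with a log2 fold change of -0.08 ± 0.22 (edgeR adjusted p = 0.847), and the sign turned when the library of Input LPS animal 270 (0.04) or of Input PBS animal 272 (0.11) was left out. By unadjusted p, no ligand was lower in input either, and no alternative tool or setting called one lower.

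Ccl9 was at 1024, 653, 683 and 1050 in Positive PBS and at 1300, 1359, 1188, 2773 and 1573 in Positive LPS animals 266, 267, 270, 271 and 507. The groups did not overlap, and the library of animal 271 lay far above the other 4. The log2 fold change was 0.94 ± 0.22 (edgeR adjusted p = 0.00243), and without that library it was 0.67 (edgeR adjusted p = 0.00386). In input, Ccl9 went from 41.0 to 58.9 in PBS animals to 89.5 to 140 in LPS animals, a log2 fold change of 1.14 ± 0.28 (edgeR adjusted p = 0.00914). This input call was lost with the animal as a block (1.31, limma adjusted p = 0.0854) and without animals 506 and 507 (1.09, edgeR adjusted p = 0.0654).

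Ccl17 encodes a ligand of CCR4, a receptor of T cell subsets, and is known as a product of dendritic cells. It was at 13.1, 16.2, 27.4 and 8.92 in Positive PBS animals 268, 272, 273 and 506, and at 80.9, 80.8, 294, 223 and 77.5 in Positive LPS animals 266, 267, 270, 271 and 507. In input it was at 9.11, 26.8, 18.04 and 17.1 in the PBS animals and at 90.9, 77.2, 249 and 57.4 in LPS animals 266, 267, 270 and 507. LPS and PBS libraries did not overlap in either fraction, and animal 270 was the highest in both. The log2 fold changes were 3.21 ± 0.56 in the positive fraction (edgeR adjusted p = 0.000193) and 2.74 ± 0.56 in input (edgeR adjusted p = 0.00241). Without the input library of animal 270 the latter was 2.08 and still called (edgeR adjusted p = 0.0108).

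Ccl19 encodes a ligand of CCR7, which guides dendritic cells and T cells in lymphoid tissue. It rose in both fractions, with log2 fold changes of 2.11 ± 0.28 in the positive fraction (edgeR adjusted p = 1.03e-05) and 2.04 ± 0.27 in input (edgeR adjusted p = 4.25e-05). In Positive PBS it was at 24.2 to 40.3, and in Positive LPS at 151, 89.1, 203, 176 and 86.5 in animals 266, 267, 270, 271 and 507. In Input PBS it was at 47.5 to 63.8, and in Input LPS at 217, 216, 306 and 183 in animals 266, 267, 270 and 507. The LPS and PBS ranges lay apart in both fractions, and animal 270 was again the highest in each.

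The positive fraction was compared with input to find which ligand transcripts were enriched on tagged ribosomes over the whole lysate. These comparisons use the same libraries as the LPS comparisons, so the results are not independent of them. In PBS animals, 6 of the 10 were higher in the positive fraction (Ccl3, Ccl4, Ccl6, Ccl7, Ccl9 and Ccl12) and 1 was lower (Ccl19), where 21.0% of all genes were called higher and 18.8% lower. In LPS animals 8 were higher, with Ccl2 and Ccl5 added, and Ccl19 was lower, where 27.6% of all genes were called higher and 25.8% lower. Ccl17 was called in neither treatment. Without animals 506 and 507 Ccl7 was no longer called in LPS animals (1.18, edgeR adjusted p = 0.0641), which left 7. Ccl4 and Ccl7 passed the count filter only through positive groups, and in PBS animals Ccl3 and Ccl12 passed only in the positive fraction, so that these calls of enrichment are of ligands let in by the group where they were high. Of the 4 ligands that passed in Input PBS itself, Ccl6 and Ccl9 were higher, Ccl19 was lower and Ccl5 was not called. The median log2 difference of the 10 was 2.34 in PBS and 3.54 in LPS animals, and that of all genes 0.00 and -0.03.

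In PBS animals, the log2 ratios within an animal were 4.16 ± 0.52 for Ccl6, 4.03 ± 0.52 for Ccl9, 3.41 ± 1.05 for Ccl4 and 3.34 ± 0.43 for Ccl12 (SD, n = 4). For Ccl4 the ratio was 4.43 ± 0.60 in LPS animals, and the fit gave 3.90 ± 0.64 in PBS (edgeR adjusted p = 7.71e-05) and 5.04 ± 0.51 in LPS animals (edgeR adjusted p = 1.5e-07), on input counts so low that the added 1 lowers the ratio within an animal. After LPS the ratio of Ccl12 was 4.49 ± 0.11, and the 4 LPS animals, at 4.36 to 4.62, were all above the 4 PBS animals, at 2.90 to 3.81. The ratio of Ccl3 went from 2.71 ± 0.52 to 4.00 ± 0.22, again without overlap between 2.21 to 3.44 and 3.74 to 4.25. In the fit, Ccl3 was higher in the positive fraction by 4.19 ± 0.59 in LPS animals (edgeR adjusted p = 7.64e-06), or by 4.88 without the input library of animal 266 (edgeR adjusted p = 4.97e-06). Ccl6 ratios were 4.44, 3.38, 4.31 and 4.50 in PBS animals 268, 272, 273 and 506 and 2.98, 2.95, 3.60 and 3.52 in LPS animals 266, 267, 270 and 507, and these overlapped.

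Ccl17 and Ccl19 were the ligands not called enriched on tagged ribosomes in either treatment, while Ccl2 (0.76, edgeR adjusted p = 0.275) and Ccl5 were not called in PBS animals. The ratio of Ccl17 was -0.13 ± 0.76 in PBS and 0.14 ± 0.25 in LPS animals, on both sides of 0. In the fit the latter was 0.35 ± 0.46 (edgeR adjusted p = 0.519), or 1.01 without the input library of animal 270 (edgeR adjusted p = 0.059). The ratio of Ccl19 was below 0 in each of the 8 animals, at -0.79 ± 0.24 in PBS and -0.86 ± 0.36 in LPS animals. In the fit over all libraries Ccl19 was lower by a log2 difference of -0.78 ± 0.29 in PBS animals (edgeR adjusted p = 0.0363) and -0.71 ± 0.24 in LPS animals (edgeR adjusted p = 0.0165). The PBS call was lost when any 1 of 5 libraries was left out (Input PBS animals 268, 273 and 506, Positive PBS animals 272 and 506, with values from -0.80 to -0.67), and the LPS call without Input LPS animal 270 (-0.54, edgeR adjusted p = 0.0732). With the animal as a block it was called in both (-0.79, edgeR adjusted p = 0.00447, and -0.86, edgeR adjusted p = 0.00039).

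**Figure D3:**
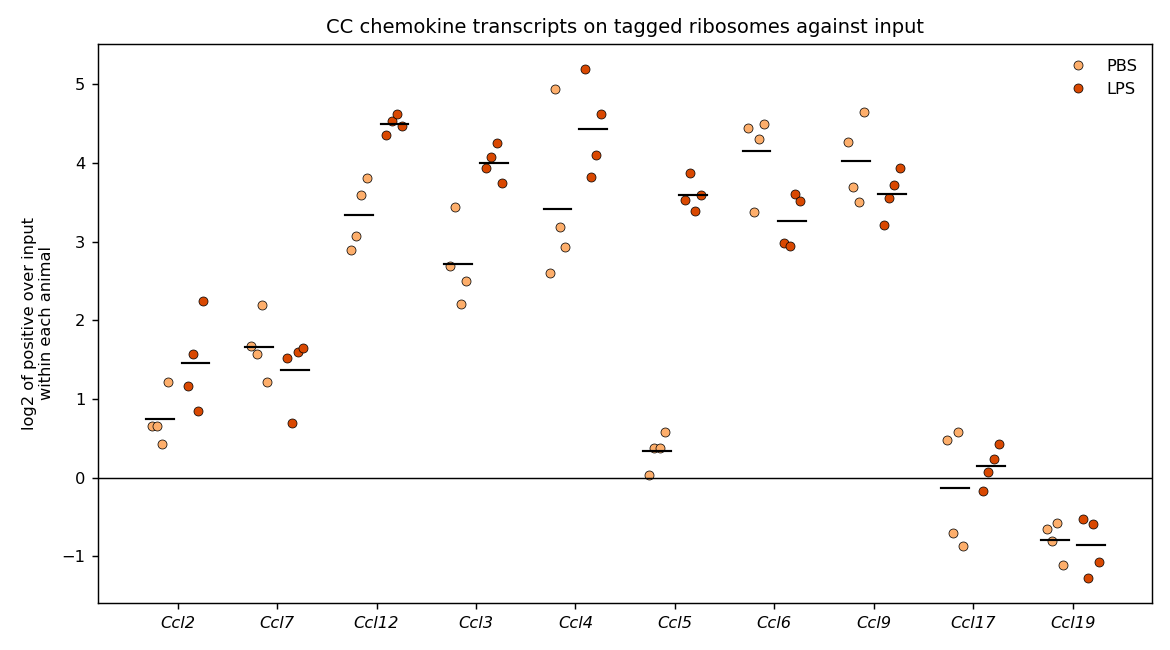
Log2 of the normalised count (plus 1) in the positive fraction over that in input of the same animal, for the 4 PBS and the 4 LPS animals with both libraries, with 1 point per animal and the mean as a bar. Ccl5 moves from 0.34 to 3.60, Ccl12 and Ccl3 points are higher and tighter after LPS, and Ccl19 lies below 0 in each animal. Input counts were lower in PBS animals (9.11 to 16.1 for Ccl3, 17.1 to 24.8 for Ccl12) than in LPS animals (22.2 to 243, 27.9 to 137). Low counts widen a ratio by counting error, and the part of this in the spread was not tested.

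Ccl5 was the only ligand whose LPS effect was called different between the fractions, by a log2 difference of 3.43 ± 0.43 (edgeR adjusted p = 0.000111), where 5.46% of all genes were called with a higher effect in the positive fraction and 1.42% with a lower one. The difference was 1.40 ± 1.02 for Ccl3 (edgeR adjusted p = 0.505) and 1.03 ± 0.62 for Ccl12 (edgeR adjusted p = 0.392). It was -0.87 ± 0.28 for Ccl6 (unadjusted p = 0.00638 and adjusted p = 0.0745 by edgeR) and between -0.58 and 1.14 for the other 6. With the animal as a block, 3 ligands had a higher effect in the positive fraction, which were Ccl5 (3.25 ± 0.17), Ccl12 (1.10 ± 0.20, edgeR adjusted p = 0.00263) and Ccl3 (1.21 ± 0.26, edgeR adjusted p = 0.00772), and Ccl6 had a lower one (-0.88 ± 0.26, edgeR adjusted p = 0.0365). DESeq2 also called Ccl6 (-0.87, DESeq2 adjusted p = 0.0323). The median difference of the 10 was 0.58 and that of all genes -0.02.

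Compared per kb of exon, the make-up of the ligand transcripts changed with LPS. In Positive PBS, Ccl6 was the highest, at 649 ± 124 normalised counts per kb (SD, n = 4), followed by Ccl12 at 442 ± 91.4 and Ccl9 at 284 ± 71.0, and each of these neighbours overlapped with the next. All 3 were above Ccl3, at 109 ± 25.4, which did not overlap with Ccl9. The remaining 6, led by Ccl5 at 92.9 ± 14.0, each overlapped with the next in order. Ccl6 and Ccl9 together made up 52.7% ± 8.53 of the summed level per kb of the 10 ligands.

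In Positive LPS, Ccl5 came first, at 11672 ± 4157 per kb (SD, n = 5), and its lowest library lay above the highest of Ccl12, the next in order at 3640 ± 1659. Ccl3 followed at 2691 ± 1814 and overlapped with Ccl12. Ccl7 was the lowest at 74.2 ± 27.2, without overlap with Ccl19 at 174 ± 64.3. The summed level rose from 1763 ± 146 to 20169 ± 7023 per kb. Ccl5 alone then took 58.2% ± 5.13 of it, against 5.26% ± 0.564 in Positive PBS, and Ccl6 and Ccl9 together 4.74% ± 1.65.

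Input had another order. In Input PBS the highest were Ccl5 at 72.2 ± 3.27 and Ccl19 at 69.2 ± 8.72 per kb, which overlapped with each other and with no other ligand, and Ccl17 and Ccl19 made up 33.6% ± 1.11 of the sum. In Input LPS Ccl5 was at 848 ± 276, above every library of Ccl19 at 285 ± 65.5, and Ccl19 overlapped with Ccl17 at 231 ± 171. Ccl17 and Ccl19 together took 28.6% ± 16.0 of the sum in Input LPS, from 17.8% to 52.3%, the latter in animal 270. The summed level in input was 309 ± 27.2 per kb in PBS and 1892 ± 406 in LPS animals.

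**Figure D4:**
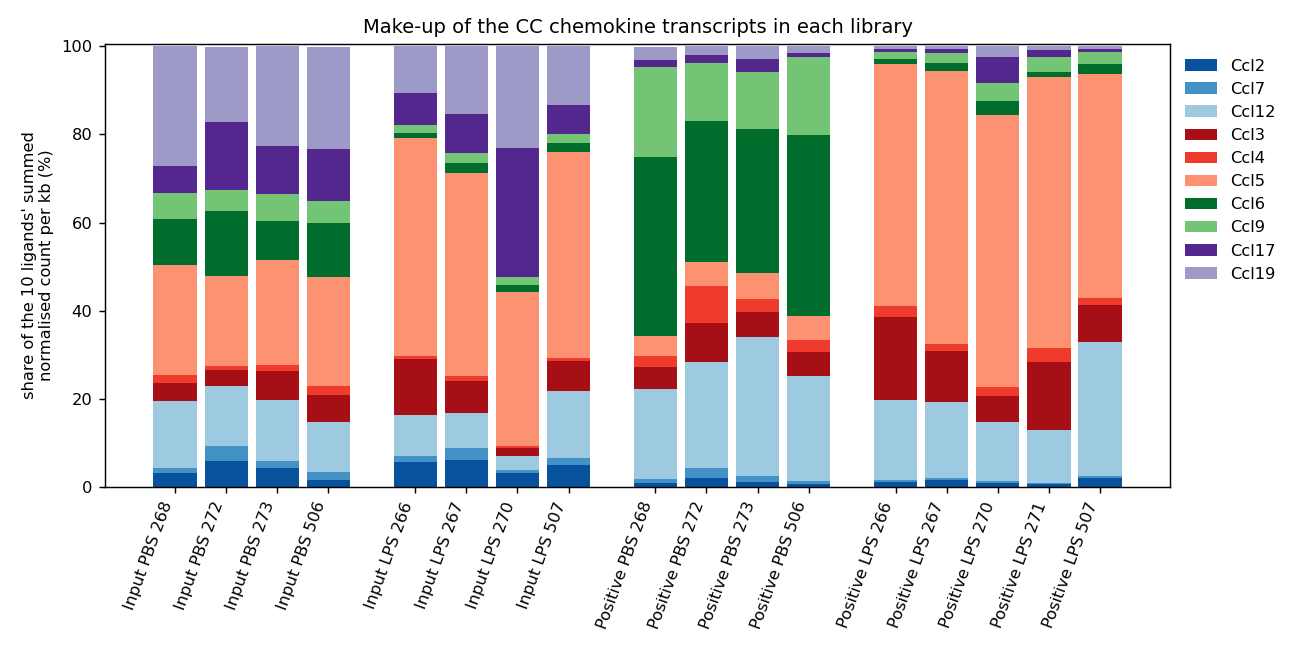
Stacked bars of the share (percent) that each of the 10 ligands took of their summed normalised count per kb of exon, with 1 bar per library, ordered by group and animal. Green (Ccl6 and Ccl9) makes up 45.0% to 61.2% of Positive PBS bars and 2.64% to 7.19% of Positive LPS bars, while the light red of Ccl5 fills 50.7% to 62.0% of the latter.

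The LPS animals did not respond alike. In the positive fraction, animal 270 had the lowest level of the 5 for Ccl2, Ccl7, Ccl12, Ccl3, Ccl4, Ccl5 and Ccl9, between 0.19 and 1.92 below the group median on the log2 scale. The same animal had the highest level of Ccl17, 1.85 above the median, and of Ccl19, 0.43 above it. Among the 4 input libraries, animal 270 was likewise the highest for Ccl17 and Ccl19, 1.56 and 0.50 above the median. Animal 271 was the next highest for Ccl17, 1.45 above the median, and was the highest for Ccl4, Ccl5 and Ccl9. With 5 animals in a group, no correlation between ligands is given.

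**Figure D5:**
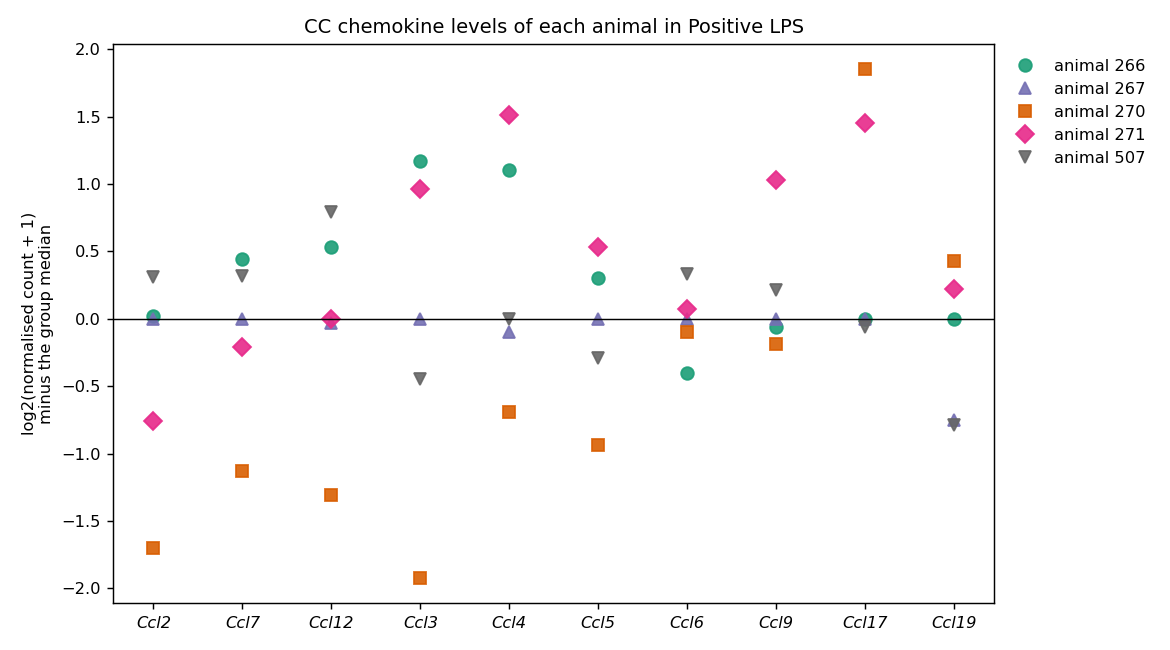
Level of each ligand in the 5 Positive LPS animals as log2(normalised count + 1) minus the group median, with 1 symbol per animal. Animal 270 lies lowest for 7 of the 10 ligands, down to -1.92 for Ccl3, and highest for Ccl17 (1.85) and Ccl19 (0.43).

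Markers of other cells varied over the same animals. The summed level of 9 neutrophil markers in the positive fraction was 144 to 301 normalised counts in PBS animals and 415 to 1008 in LPS animals. It was lowest in animal 270 among the latter. In input the sum was 462 to 796 and 739 to 1578, again lowest in animal 270 among the LPS animals. In each fraction 4 of the 5 tested were higher after LPS, against 19.0% of all genes in the positive fraction and 7.16% in input. Of these, Ngp passed the count filter only through LPS groups and Retnlg only through Input LPS, so that both could hardly have entered without a difference. Cxcr2 was the largest part of the sum in Positive PBS, at a mean of 140.2, and was at 142.5 in Positive LPS. Ly6g was listed at 0 in all 17 libraries and Elane in all Positive libraries. The summed level of 8 dendritic cell markers was 8538 to 9351 in Positive PBS and 1996, 2341, 4912, 3923 and 2414 in Positive LPS animals 266, 267, 270, 271 and 507, highest in animals 270 and 271. Most of this sum was Siglech, which microglia also express, at 4147 in animal 270 and 3064 in animal 271 against 1174 to 1660 in the other 3. The other markers of the list went both ways. Xcr1 and Batf3 were lowest in animal 270, at 16.7 against 18.7 to 31.2 and at 43.6 against 60.7 to 90.7. Itgae was highest in animal 270, at 28.8 against 6.13 to 12.1. Cd209a was at 22.3 and 24.3 in animals 270 and 271 against 0 to 4.90. Zbtb46 was at 248.5 and 354.5 in animals 270 and 271 against 166 to 226. Flt3 was lowest in animals 271 and 270, at 384 and 397 against 459 to 513, and Clec9a was at 6.63 and 7.42 in these animals against 4.90, 16.6 and 21.1 in animals 266, 267 and 507. The summed level of 8 microglia markers was 173945 to 215191 in Positive PBS and 130267 to 185243 in Positive LPS, with animal 270 in the middle at 165011. The part of these cells in the levels of the ligands was not tested.

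The sum of 8 monocyte markers was 1268 to 3149 in Positive PBS and 834 to 1968 in Positive LPS. Fn1 was the largest part of it, at a mean of 1475 in Positive PBS and 855 in Positive LPS. Ms4a4c was at a mean of 28.1 and 247 in these groups, and Ly6c2 at 147 and 183. The sum of 8 border macrophage markers was 5160 to 10061 in Positive PBS and 3654 to 6056 in Positive LPS. The sum of 11 T and NK cell markers was 274 to 392 and 177 to 258, with Trbc2 listed at 0 in all 17 libraries and Cd3e at 0 to 1.04 in Positive LPS. Most of that sum was Cd4, at a mean of 284 in Positive PBS and 191 in Positive LPS. Of the monocyte, border macrophage and T and NK cell markers, 6, 8 and 1 (Cd4) were tested. After LPS, 2, 5 and 1 of these were lower in the positive fraction, while 2 of the monocyte markers were higher. Of all genes, 14.9% were called lower and 19.0% higher. Among the monocyte markers, Ms4a4c passed the count filter only through Positive LPS, Chi3l3 only through Input LPS and Ccr2 only through Positive PBS. Each of these entered through a group where it was high and could hardly have done so without a difference. Of 8 endothelial markers, 7 were higher in the positive fraction than in input in PBS animals, against 21.0% of all genes, and 6 in LPS animals, against 27.6%. Their sum was 6306 to 10037 in Positive PBS and 5898 to 9819 in Positive LPS. The sum of 8 mural and fibroblast markers was 1828 to 2345 in Positive PBS and 1999 to 2626 in Positive LPS, against 2799 to 3348 and 3537 to 4717 in input. Of the 7 tested, 1 was higher and 1 lower after LPS in each fraction. Of all genes, 7.16% were called higher and 5.26% lower in input. Dcn went from a mean of 588 to 2064 in input and from 296 to 946 in the positive fraction. Rgs5 went from 551 to 302 and from 651 to 242, and Acta2 was listed at 0 in all 17 libraries. In LPS animals the astrocyte markers summed to 142216 to 156138 in input and 139639 to 160346 in the positive fraction. The neuron markers summed to 159308 to 175993 and 140260 to 193955. In these animals 1 of 8 astrocyte markers was higher in the positive fraction than in input and 4 were lower. For the 7 neuron markers these counts were 3 and 0. Of all genes, 27.6% were called higher and 25.8% lower. The oligodendrocyte markers summed to 24315 to 32071 in Positive PBS and 21186 to 30767 in Positive LPS, against 103383 to 162972 and 66509 to 95129 in input.

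Of the other CC ligands, 13 of the 14 on the list were in the table and 8 were tested. In the positive fraction, Ccl22 and Ccl21a were higher after LPS and Ccl24, Ccl8 and Ccl27b lower. Ccl22 passed the count filter only through Positive LPS, and Ccl24 and Ccl8 only through Positive PBS, so that each entered through the group where it was high and could hardly have done so without a difference. Ccl22, which shares the receptor CCR4 with Ccl17, went from 9.81 ± 10.8 (SD, n = 4) to 222 ± 130 (SD, n = 5), a log2 fold change of 4.40 ± 0.57 (edgeR adjusted p = 7.99e-06). Ccl22 was also higher in the positive fraction than in input in LPS animals, by 3.16 ± 0.50 (edgeR adjusted p = 2.94e-05), and whether it differed in this from Ccl17 was not tested. Ccl24 and Ccl8, made by border macrophages, fell by 2.01 ± 0.36 (edgeR adjusted p = 0.000225) and 1.39 ± 0.46 (edgeR adjusted p = 0.0225) on the log2 scale.

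Ccl24 went from 77.9 ± 12.8 in Positive PBS to 19.3 ± 9.40 in Positive LPS, without overlap, while the levels of Ccl8 overlapped. In input, Ccl22 (2.13 ± 0.65, edgeR adjusted p = 0.0364) and Ccl21a (0.71 ± 0.21, edgeR adjusted p = 0.0277) were higher and Ccl27a was lower (-0.52 ± 0.11, edgeR adjusted p = 0.0046). Ccl21a was higher in the positive fraction by 0.76 ± 0.21 (edgeR adjusted p = 0.0072), and Ccl27b fell by 0.49 ± 0.18 (edgeR adjusted p = 0.0401). Ccl21a, Ccl27a and Ccl27b belong to families of near-identical copies, so their counts are uncertain. The median log2 fold change of the 8 was 0.05 in the positive fraction and -0.01 in input.

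All 16 CC and atypical chemokine receptors on the list were in the table and 8 were tested. Ccr2, the receptor of Ccl2, Ccl7 and Ccl12, went from 43.5 ± 14.9 to 8.36 ± 4.19 in the positive fraction, a fall by 2.33 ± 0.40 (edgeR adjusted p = 0.000139), and was not called in input (-0.41 ± 0.44, edgeR adjusted p = 0.591). Ccr2 passed the count filter only through Positive PBS, the group where it was high.

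Ccr1, the receptor of Ccl3, Ccl5, Ccl6 and Ccl9, was at 94.2 ± 36.2 in Positive PBS and 125 ± 31.2 in Positive LPS (0.41 ± 0.32, edgeR adjusted p = 0.328) and was higher in input (1.36 ± 0.41, edgeR adjusted p = 0.0322). Ccrl2, an atypical receptor, was higher in the positive fraction (1.14 ± 0.27, edgeR adjusted p = 0.00245). Ackr1, listed as Darc, a scavenging receptor of endothelium and red cells, was higher in input (0.40 ± 0.11, edgeR adjusted p = 0.0157). Ccr7, the receptor of Ccl19, was under the filter, at 1.27 to 6.53 in Positive PBS and 15.5 to 26.1 in Positive LPS. Ccr4, the receptor of Ccl17 and Ccl22, was at most 9.11 in any library. The median log2 fold change of the 8 tested receptors was 0.14 in the positive fraction and 0.24 in input.

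Of 16 genes upstream of chemokine induction by LPS, 11 were higher in the positive fraction, against 19.0% of all genes, and 8 in input, against 7.16%, with medians of 0.64 and 0.56. Tnf and Il1b passed the count filter only through LPS groups. In the positive fraction the 3 largest rises were those of the cytokine genes Tnf (4.70 ± 0.33, edgeR adjusted p = 5.93e-09) and Il1b (4.03 ± 0.35, edgeR adjusted p = 8.53e-08) and of Irf7, an interferon regulatory factor (2.53 ± 0.16, edgeR adjusted p = 2.4e-09). In input these were Irf7 (3.01 ± 0.17, edgeR adjusted p = 3.64e-09), Tnf (2.95 ± 0.38, edgeR adjusted p = 2.72e-05) and Il1b (2.28 ± 0.38, edgeR adjusted p = 0.000416). Tlr4 itself was not called in the positive fraction (0.25 ± 0.19, edgeR adjusted p = 0.302) and was higher in input (0.91 ± 0.23, edgeR adjusted p = 0.0108).

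Of 14 genes for glycosaminoglycan synthesis, syndecans and proteases that hold or cut chemokines, 5 were higher and 2 lower in the positive fraction, with a median of 0.22, and 4 were higher and 1 lower in input, with a median of 0.04. The counts of lower genes were near the shares of all genes, 14.9% and 5.26%, while 19.0% and 7.16% of all genes were called higher. Mmp3 passed the count filter only through LPS groups and Mmp12 only through Input LPS. Mmp3 (4.77 ± 0.60, edgeR adjusted p = 6.63e-06), Mmp12 (2.00 ± 0.49, edgeR adjusted p = 0.00356) and Sdc4 (1.57 ± 0.17, edgeR adjusted p = 9.8e-07) rose most in the positive fraction. Sdc1 fell by 1.10 ± 0.25 (edgeR adjusted p = 0.00205). Dpp4, a protease that trims the amino terminus of several chemokines, Ccl5 among them, fell by 0.87 ± 0.20 (edgeR adjusted p = 0.0025). In input Mmp3 (6.74 ± 0.67, edgeR adjusted p = 1.63e-06), Mmp12 (4.17 ± 0.57, edgeR adjusted p = 6.19e-05) and Mmp9 (1.37 ± 0.22, edgeR adjusted p = 0.000277) rose most, and Sdc1 fell by 0.92 ± 0.26 (edgeR adjusted p = 0.0244).

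The genes most like each ligand were found by Pearson's r of log2(normalised count + 1) over the 17 libraries, which group differences dominate, so r is given as a description. Ccl5 was most like Saa3, an acute-phase gene (0.992), Fpr1 (0.982) and Tnf (0.981). Ccl3 was most like Aoah, which encodes an enzyme that inactivates LPS (0.982), Gpr84 (0.978) and Cybb (0.976). Ccl4 was most like Ripk1 (0.980), Pik3ap1 (0.978) and C3ar1 (0.976). These 3 ligands were nearest to genes high in Positive LPS, with no like gene in common.

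Ccl12 was most like Capg (0.988), Clec4a2 (0.985) and Tspo (0.985), Ccl2 like C3 (0.969), Cp (0.967) and Oasl2 (0.962), and Ccl7 like Rras (0.946), Icam1 (0.942) and Mlkl (0.938). Genes most like Ccl6 included Grap (0.993) and Cmtm6 (0.991), and Ccl9 was most like Fcgr1, Was and Tnfrsf1b (0.991 each). Ccl17 was most like Nup107 (0.943), Cxcl10, a CXC chemokine gene (0.939), and Rnf115 (0.937), and Ccl19 like Pla2g4e (0.967), Lpin3 (0.965) and Tma16 (0.963).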

How the data were processed

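The study measured RNA of Input and Positive TRAP fractions of hemisected brains by sequencing. Per the study's methods, the authors trimmed reads and aligned them by strand to the mouse genome in Strand NGS, with DESeq normalisation, and the labels name the build mm10 and DESeq. The deposited table holds estimated counts per RefSeq gene model, of which 81.6% of the nonzero values were not whole, and log2 values after normalisation that the authors also deposited. Estimated counts were rounded for count models. Depth is given by total counts per library, where a count of 0 allows up to 3 counts, or 8.54e-06% to 1.31e-05% of a library (counting error only).

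Size factors were medians of ratios over 15766 genes (0.766 to 1.32). Counts of 17 libraries were fitted with edgeR 4.0.16 (glmQLFit, glmQLFTest) in R 4.3.3, each group having its own mean, which left 13 residual degrees of freedom, for 5 contrasts. The study used an analysis of variance by fraction and treatment, and its filter, adjustment and fold threshold were kept. Input of animal 271 was not among them because of its low total. Animal numbers tie both fractions of 8 animals, whose deviations from group means correlated at 0.16 to 0.519, so animal was used as a block in an alternative fit (edgeR with animal as a term between fractions, limma 3.58.1 voom with an estimated correlation for LPS effects). Other alternatives were DESeq2 1.42.0, limma on log2(normalised count + 1), TMM scaling, other filters, all 18 libraries, the compared groups only, sex as a term, leaving out each library or animals 506 and 507, and, added after seeing the data, limma on the deposited log2 values. Scripts were tested on simulated data. Ratios within an animal used a pseudocount of 1. Exon lengths, of protein-coding transcripts within the deposited gene models, and 42-base stretches came from GENCODE vM21.

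Named are all 10 ligands, every called gene among other CC ligands and receptors, up to 3 raised and 3 lowered called genes in 2 further lists, and the 3 most like genes of each ligand. Some genes that this rule names are not reported here. The members and lists were chosen with earlier results of these data known. Protein sequences were not used here. Animals are separate biological replicates per the study's design.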

Additional observations from a re-analysis of the deposited data

Results flagged for a closer look

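The levels of the 10 ligands in 4 groups were examined for single libraries far from the rest, in 40 sets of 4 or 5 libraries, where chance alone marks about 1 set in 20, and 4 were found. In Input PBS, Ccl7 was at 9.29 normalised counts in animal 272 against 2.73 to 3.81 in the other 3, and Ccl12 was at 17.1 in animal 506 against 23.7 to 24.8. In Positive PBS, Ccl4 was at 93.3 in animal 272 against 27.2 to 35.7, and without that library the LPS effect on Ccl4 in the positive fraction was 3.29 (edgeR adjusted p = 3.16e-05) in place of 2.71. In Positive LPS, Ccl9 was at 2773 in animal 271 against 1188 to 1573, in the library that also had the largest share of Rn45s, and the part of that share in the level of Ccl9 was not tested.

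The LPS effect on Ccl5 differed between the positive fraction and input by 3.43 on the log2 scale (edgeR interaction contrast). The values over all alternatives ran from 3.25 to 3.66, and their adjusted p from 2.21e-17 to 0.00464.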

How the results depend on the processing

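Among comparisons of a single ligand under an alternative, 1343 kept their direction and their side of the threshold, 16 lost a call, 9 gained one and 12 changed sign. With the animal as a replicate block, members higher in input numbered 5 in place of 8, those with a higher LPS effect in the positive fraction 3 in place of 1, and those with a lower one 1. No other call changed with the block. Without animals 506 and 507, members higher with LPS numbered 5 in input and 8 in place of 9 in the positive fraction, and between fractions those lower in PBS animals 0 in place of 1 and those higher in LPS animals 7 in place of 8. DESeq2 called 1 lower LPS effect, that of Ccl6. Leaving out 1 library gave 5 to 6 members higher and 0 to 1 lower in the positive fraction in PBS animals, 0 to 1 lower in LPS animals and 0 to 1 with a lower LPS effect. Ccl7 in PBS animals was not called without Positive PBS 272 (edgeR adjusted p = 0.0574). Ccl6 in the difference was called without Input LPS 270 (-0.99), Input PBS 272 (-1.06) or Positive LPS 507 (-0.96). Uncalled values changed sign for Ccl6 in input (0.04 and 0.11, without the libraries named above), Ccl17 between fractions (0.06 without animals 506 and 507, 0.14 without Input PBS 272, 0.07 without Positive PBS 506, and -0.04 in LPS animals without Positive LPS 270) and Ccl19 in the difference (-0.07 with the block, and -0.10, -0.01, -0.02, -0.04 and -0.03 without single libraries). Over all alternatives, these values ran from -0.21 to 0.11, from -0.45 to 0.14 (PBS), from -0.04 to 1.01 (LPS) and from -0.10 to 0.24. The cause was not tested. Counts under about 20, as for Ccl4 and Ccl7 in input, limit what these depths can show, and sexes were unequal between treatments, though with sex as a term every ligand kept its call.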
